A study of Drosophila melanogaster with 8 samples.

Results

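Heads of flies that expressed the D493N form of Eyes absent (EYA) were compared with heads of control flies on 4 of the 8 single-colour Affymetrix arrays of the series, 2 arrays per group, picked by the sample labels. All 18769 probe sets for fly genes were read, and the 11261 with the highest mean signal were tested. Control flies were of the strain W1118, with neither driver nor transgene. D493N flies carried the heat-inducible driver HspGal and the transgene UAS-EYA-D493N, and 2 further groups of 2 arrays carried UAS-EYA-wildtype or UAS-EYA-E728Q with the same driver. Every group, control included, had 1 h at 37 C and 3 h of recovery at 25 C, so heat shock is common to both sides of each comparison. Adult males and females were used together, and each RNA came from 200 heads taken in 4 lots of 50. Since the control lacked the driver and any insertion, effects of the EYA protein, the driver, the insertion site and the strain background cannot be told apart. The driver acts throughout the animal, and how many fly lines or crosses stood behind the D493N samples was not given in the sources used here. Whether the 2 samples of each group were separate fly cultures was not stated in the labels, and p-values therefore reflect only how far these samples vary, possibly for technical reasons.

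EYA is a coactivator that works with the DNA-binding protein Sine oculis (So) in the network that specifies the eye, together with Dachshund (Dac). It also belongs to a family of phosphatases whose catalytic site is built around aspartate, and per the study's design text D493N reduces that activity while E728Q leaves little if any. Adult heads hold photoreceptors, brain, muscle, fat body, glia and cuticle-forming epidermis, so RNA from whole heads sums over all of them. In such bulk samples, fewer cells of a type and less RNA per cell cannot be told apart.

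The D493N arrays lay farther from each other than the arrays of any other group. Across probe sets, the log2 difference between replicates had an SD of 0.39 with D493N, against 0.28 in control, 0.27 with wild-type EYA and 0.32 with E728Q. A gap of at least 2-fold between the D493N arrays was found for 283 of 11261 probe sets, with replicate 1 lower for 170 (1.51%) and higher for 113 (1.00%), against 136 such gaps in control. Of these 283, replicate 1 lay outside the range of all 6 arrays of the other groups for 190 and replicate 2 for 117, so each of the arrays stood apart for part of these genes. Replicate 1 also had 18S rRNA control signals of 5619 (5' end) and 11249 (3' end), against 1501 and 5524 on replicate 2 and 842, 809, 2947 and 3357 in control. For Act5C, the 3' signal over the 5' signal, which rises as RNA breaks down, came to 5.63 and 6.26 with D493N and 4.15 and 4.29 in control. Both D493N arrays therefore lay above both control arrays in that ratio, and whether this or the rRNA signal has a part in the results was not tested.

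Muscle, antennal and cuticle genes were among those on which the D493N arrays disagreed. For 13 muscle genes (actins, myosin light chains, troponins and other sarcomere parts), the summed signal was 59807 on D493N replicate 1 and 135350.0 on replicate 2, against 99529 and 106576 in control. Replicate 1 had the lowest signal of all 8 arrays for 11 of the 13, and replicate 2 the highest for 8, and both control sums lay between the D493N sums. Over all 8660 genes tested, replicate 1 was lowest for 1247 and replicate 2 highest for 1499. Such ranks and sums are of deposited values. On these, replicate 2 was also highest for 27 of 30 cytosolic ribosomal genes, whose median log2 gap after normalization was 0.04. For the 13 muscle genes that normalized median gap was -0.98. TpnC41C, a troponin C gene named after its values were seen, read 3450.3 on replicate 1 and 11149.6 on replicate 2, with 9031 and 10435 in control. None of the 13 was called against control by limma, with 0 at an unadjusted p under 0.05. The median log2 fold change of the 13 was 0.17 without replicate 1 and -0.72 without replicate 2. Over all genes tested these medians were -0.01 and -0.02. The summed signal of 5 antennal genes was 2339 and 4705 with D493N and 1269.8 and 2668 in control. None of the 5 was called by limma (1 at an unadjusted p under 0.05). The control arrays disagreed on this list too, with a median log2 gap of -0.60, against -0.99 between the D493N arrays. With E728Q the sums were 4824 and 3233, a gap the other way. Genes of the respiratory chain showed small gaps of the same sign, with replicate 1 the lowest of 8 arrays for 43 of 55 genes, compared with 1247 of all 8660 genes tested. The neuronal list had a like median gap (-0.17, and -0.18 in the respiratory chain), with 8 of 10 genes lower on replicate 1. Summed signals of 4 photoreceptor genes (73269 and 92139, with 76988 and 75074 in control) and 10 neuronal genes (29005 and 36048, with 33427 and 30492) stayed within 1.5-fold of each other, and both lists were high on every array. With all arrays, 1 neuronal and 0 photoreceptor genes were called lower. Without D493N replicate 2 the median log2 fold changes were -0.27 (neuronal) and -0.09 (photoreceptor), against -0.02 over all genes tested.

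**Figure D1:**
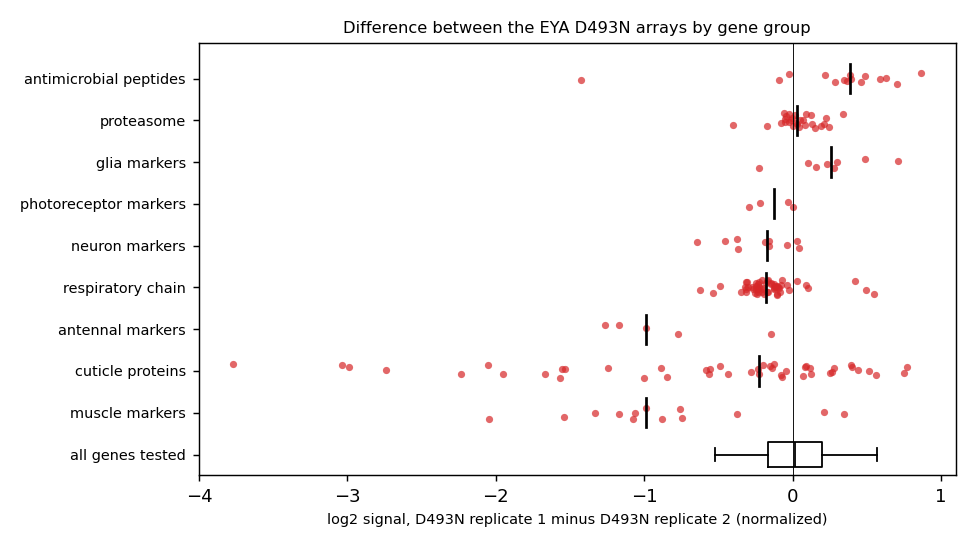
Log2 signal of D493N replicate 1 minus replicate 2 after quantile normalization, for each tested gene of a list (points), with the list median (black bar). The box shows the quartiles of all genes tested and its whiskers the percentiles 5 and 95. Most muscle and all 5 antennal genes lie left of 0, as do cuticle genes with gaps of over 2 log2 units, while proteasome genes lie near 0 and 7 of 8 glial genes lie right of it (median 0.26).

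Against control, 1582 probe sets were higher with D493N (14.0% of 11261) and 1565 lower (13.9%), at an adjusted p under 0.05 in a limma model of all 8 arrays. The median log2 fold change over all probe sets was -0.02. Quantile normalization gives each array the same distribution and so draws this median towards 0. On deposited values the median was 0.02, with 1665 probe sets higher and 1232 lower. Because 2 arrays per group are few and the D493N arrays disagreed, a stricter set was kept beside these calls. It asks for a call with all 8 arrays, with the 4 arrays of the comparison alone and with each of those 4 left out in turn, and for no overlap between the groups. This stable set held 1595 probe sets (14.2%), 870 higher (7.73%) and 725 lower (6.44%), of which 715 differed at least 2-fold. Leaving out the control arrays took more calls than leaving out the D493N arrays, with 1864 and 2003 calls without control replicates 1 and 2 and 3078 and 3728 without D493N replicates 1 and 2. In these last fits the lone array is taken to vary like the other groups. Over all 8660 genes, 1314 higher and 1270 lower became 853 and 695 without control replicate 1 and 890 and 761 without control replicate 2, and counts of list members given below moved as well. Non-overlap alone says little here, since the groups did not overlap for 59.4% of all probe sets tested. Calls were also more frequent at high signal, from 11.9% of the 2816 dimmest probe sets tested to 38.3% of the 2815 brightest.

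The largest increases in the stable set included genes whose control signals lay near or below the array median of 100. In each sentence the 2 signals are of replicates 1 and 2. CG2444 read 149 and 92.1 in control and 24973 and 25664 with D493N, a log2 fold change of 7.44 with an SE of 0.15 (adjusted p = 5.44e-08). The receptor gene mthl8, of the Methuselah-like family, read 4.86 and 6.2 in control and 700.2 and 716 with D493N, a log2 fold change of 4.94 with an SE of 0.12 (adjusted p = 7.86e-08). Both genes gave nearly equal signals on the D493N arrays, far from the control arrays. For the ecdysone synthesis gene sad, which encodes a cytochrome P450, signals were 7.51 and 6.61 in control and 641 and 312 with D493N, a log2 fold change of 4.22 with an SE of 0.29 (adjusted p = 1.90e-05). The D493N arrays for sad differ by about 2-fold, yet the lower still exceeds both control arrays by far. Because the control signals of mthl8, sad and CG3706 lie below the pseudocount of 17.5, their fold changes and ranks shift with it, between 3.32 and 6.15 for mthl8, between 2.73 and 5.30 for sad and between 3.19 and 5.59 for CG3706 over the alternatives.

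Other strong increases came from enzymes and secreted or membrane proteins. Ance-4, of the family of angiotensin-converting enzymes, rose from 1008 and 933 to 14844 and 15301, and Nepl4, of the neprilysin family of peptidases, from 161 and 150.4 to 2971 and 2513. The collagen-like matrix gene prc rose from 96.2 and 105 to 1476 and 2125. In PGRP-SC2, an amidase that degrades peptidoglycan, the signal went from 103 and 95.5 to 1524 and 1701. Their log2 fold changes were 3.85, 3.95, 3.87 and 3.75, and in none of the 4 did the groups overlap. The glutathione transferase gene GstD9 (3.93), slam, which acts in the cellularizing embryo (4.22), and the cyclin-dependent kinase gene Eip63E (3.70) rose as well. The rest of the 15 largest increases were CG3706 (4.64), CG14949 (4.34), CG3770 (4.23), CG4752 (3.62) and CG32191 (3.60), for which no role is given here.

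**Figure D2:**
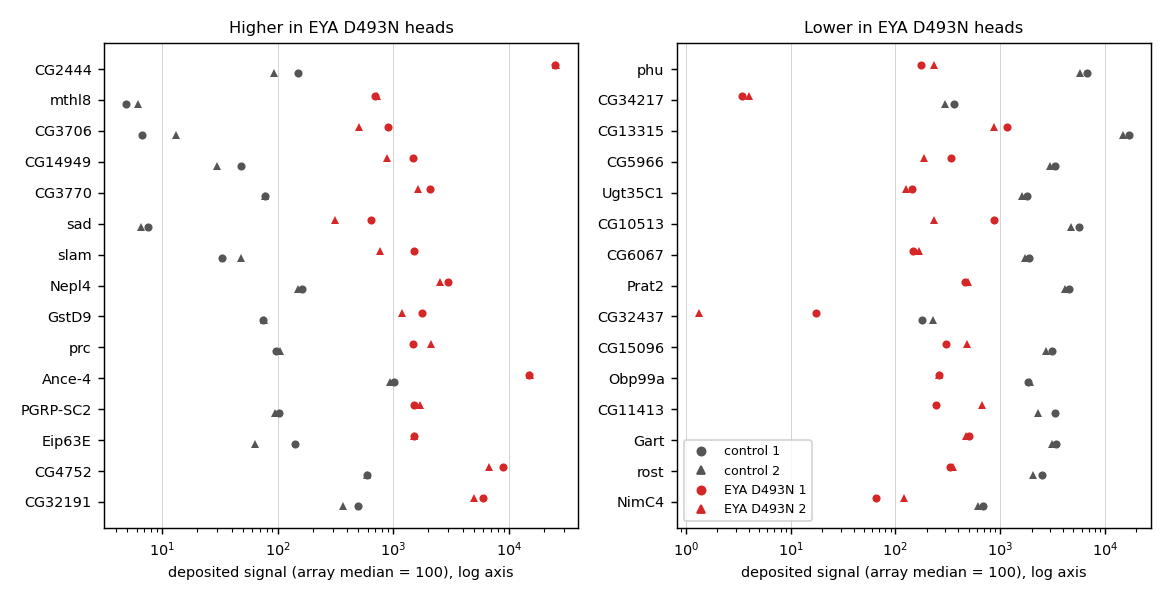
Deposited signal of every control and D493N array (log axis; array median 100) for the 15 stable probe sets with the largest increase (left) and decrease (right). In each row the D493N points lie on one side of the control points, while CG10513, CG32437 and CG11413 show wide gaps between the D493N arrays.

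The largest decreases mixed metabolic, transport and uncharacterised genes. The signal of phu fell from 6728 and 5814 in control to 176 and 231 with D493N, a log2 fold change of -4.79 with an SE of 0.22 (adjusted p = 2.24e-06). CG34217 read 359 and 299 in control and only 3.44 and 3.98 with D493N, a log2 fold change of -4.03 with an SE of 0.29 (adjusted p = 2.31e-05), which lay between -5.37 and -2.43 over the alternatives because the D493N signals are under the pseudocount. CG13315 dropped from 17038 and 15008 to 1174 and 874. All 3 were low on both D493N arrays. Ugt35C1, a UDP-glycosyltransferase, fell from 1803 and 1605 to 145 and 127, and rost, needed for myoblast fusion in the embryo, from 2506 and 2056 to 329 and 354. The odorant-binding protein gene Obp99a fell from 1846 and 1946 to 262 and 262, and NimC4, a receptor through which glia and macrophages engulf dying cells, from 692 and 619 to 65.4 and 122. Their log2 fold changes were -3.51, -2.70, -2.82 and -2.69. CG10513 fell too, but its D493N arrays gave 875 and 233, and the log2 fold change of -3.45 became -4.34 without replicate 1 and -2.55 without replicate 2. CG11413 was as divided, at -2.06 and -3.46. The others among the 15 were CG5966 (-3.57), CG6067 (-3.41), CG32437 (-3.13), CG15096 (-2.91) and the purine genes Prat2 and Gart.

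Most genes of purine and folate synthesis fell. Of 15 tested genes 9 fell and 2 rose, with 7 and 2 in the stable set. Of all 8660 genes tested 14.7% were called lower and 15.2% higher, 29.8% in all. Each list count below is to be read against these shares. The list median of -0.57 lay below the -0.02 of all genes tested. Prat2, which encodes the amidotransferase of the first committed step of purine synthesis, read 4523 and 4207 in control and 462 and 497 with D493N, a log2 fold change of -3.14 with an SE of 0.13 (adjusted p = 1.40e-06). Gart, an enzyme of several later steps, went from 3393 and 3158 to 501 and 476 (-2.73), and Nmdmc, a mitochondrial enzyme that supplies folate-bound carbon units, from 5189 and 4377 to 882 and 711 (-2.56). The 3 genes fell on both D493N arrays to a similar degree. The genes that rose were the second amidotransferase gene, Prat, from 302 and 333 to 1122 and 847 (1.52), and Aprt, which salvages adenine, from 481 and 352 to 1529 and 1290.3 (1.67). Prat and Prat2, which encode the same activity, thus moved in opposite directions. The xanthine dehydrogenase gene ry, which the list of eye pigment genes also holds, also fell (-0.92).

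Genes that store and release energy changed alongside. In the list of the adipokinetic and insulin axis 10 of 25 genes fell and 6 rose, 7 and 5 of them in the stable set. These were 40% lower and 24% higher, against 14.7% and 15.2% of all genes tested. AkhR, the receptor for the hormone that mobilises fat and glycogen, fell from 1604 and 1398 to 334 and 208, a log2 fold change of -2.47 with an SE of 0.22 (adjusted p = 7.34e-05). The glucosidase gene tobi, a target of insulin-producing cells, fell from 477 and 466 to 92.5 and 149 (-1.88), the lipase gene Lip4 from 932 and 805 to 224 and 261 (-1.82), and mdy, which makes triacylglycerol, from 2564 and 1672 to 775 and 678 (-1.55). The storage protein gene Lsp2 rose from 1226 and 1423 to 3445 and 5089.8 (1.60), while fit, a fat body gene of mostly female expression, fell from 6281 and 5272 to 1997 and 1321 (-1.82). Over 8 fat body genes 1 rose and 4 fell, and their summed signal was 122540.0 and 113419 in control and 103452 and 120573 with D493N. The groups overlapped in that sum, and its part in the changes of metabolic genes was not tested.

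More detoxification genes were called lower than higher. Among cytochrome P450 genes 23 of 71 fell and 11 rose, among glutathione transferases 9 of 31 fell and 5 rose, and among UDP-glycosyltransferases 8 of 17 fell and 3 rose. The numbers lower were 19 and 14 for cytochrome P450 genes without control replicates 1 and 2 and 5 for glutathione transferases without either, with 12 without D493N replicate 1. In the stable set 13 cytochrome P450, 5 glutathione transferase and 7 UDP-glycosyltransferase genes were lower and 7, 3 and 1 higher. The medians were -0.23, -0.26 and -0.53. Cyp6g1, known for insecticide resistance, read 2844 and 2791 in control and 551 and 632 with D493N, a log2 fold change of -2.25 with an SE of 0.10 (adjusted p = 1.77e-06). Cyp4g1, which makes cuticular hydrocarbons, fell from 578 and 609.5 to 139.8 and 116 (-2.12). Against this direction, Cyp6a23 rose from 392 and 376 to 3654 and 2944 (2.99) and Cyp12c1 from 307 and 294 to 1689 and 1128 (2.09). In the GstD family GstD9 and GstD10 rose (3.93 and 1.27) while GstD2 fell (-1.44), so neighbouring members of a single family moved apart. Sequences in this family are alike, and whether its probe sets tell the members apart was not tested. Among peptidases of the neprilysin and Ance families 8 of 26 rose (30.8%) and 5 fell (19.2%), with 5 and 4 in the stable set. Of these Nep7 rose from 331 and 293 to 2754 and 1933 (2.78).

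Most antimicrobial peptide genes fell, while more recognition and engulfment genes rose than fell. Of 15 antimicrobial peptide genes 11 fell and 0 rose, 7 of them in the stable set, with a median of -0.77. Without D493N replicate 2 the list held 8 lower and 3 higher. The largest decreases of the stable kind were in bomanins, short peptides made under the Toll pathway: BomBc2 went from 14091 and 11954 to 5005 and 4294 (-1.48), BomT2 from 10872 and 8928 to 4492 and 3374 (-1.33) and BomBc3 from 3498 and 2621 to 1213 and 1292 (-1.30). These 3 were lower on both D493N arrays than on either control array. Def, which encodes defensin, fell by a log2 fold change of -1.65, but its D493N signals were 232 and 656. DptB, a diptericin, was uneven in both groups, at 1019 and 306 in control and 241 and 121 with D493N, and the calls of Def and DptB were lost under some alternatives (adjusted p up to 0.074 and 0.161). Of 25 recognition and signalling genes 10 rose and 6 fell, 8 and 3 of them in the stable set. The Toll pathway kinase gene pll rose from 279.9 and 252 to 1497 and 932 (2.03), and pirk, an inhibitor of the Imd pathway, from 128 and 148 to 659.8 and 459.7 (1.81). PGRP-LB, an amidase that dampens Imd signalling, rose (1.11), and PGRP-SB1 fell from 1954 and 1283 to 554 and 417 (-1.73).

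The Nimrod genes, of the family of NimC4, gave a block of increases. Of 16 genes for phagocytosis receptors and thioester proteins 6 rose and 2 fell, and the 6 that rose, NimB1 to NimB5 and NimC1, were all in the stable set. NimB1 read 128 and 96.3 in control and 1067 and 701 with D493N, a log2 fold change of 2.74 with an SE of 0.21 (adjusted p = 3.20e-05). NimB3 rose from 903 and 707 to 3583 and 3204 (2.00), NimB5 from 544 and 531 to 3114 and 1596 (1.95), and NimC1, a phagocytosis receptor of blood cells, from 117 and 117 to 396 and 379 (1.56). For NimB2 and NimB4, named after their values were seen, the changes were 1.18 and 1.27. In the annotation the genes NimB1 to NimB5 are neighbours among the measured genes, so this is a run of 5 adjacent genes that changed at least 2-fold in the same direction. There were 10 runs of 3 or more such genes, 9 of them higher, and a run found after seeing the data that ends with the clock gene per (HLH3B, CG2652, per) was another. The blood cell gene list held 3 higher and 1 lower of 9, NimC1 among the higher, with summed signals of 7100.2 and 6118 in control and 7585 and 8076 with D493N.

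Imaginal disc growth factor genes fell with D493N, and more matrix genes were called lower than higher. All 6 tested imaginal disc growth factor genes, which encode secreted proteins related to chitinases, fell, 4 of them in the stable set. Idgf3 went from 4066 and 3755 to 2083 and 1859, a log2 fold change of -1.01 with an SE of 0.09 (adjusted p = 9.71e-05), and Idgf5 from 1128 and 997 to 619 and 475 (-1.02). The median of the 6 was -0.77, and it stayed negative without either D493N array (-0.87 and -0.64). In the extracellular matrix list 9 of 19 genes fell and 2 rose, with 5 and 2 in the stable set. The share lower was 47.4%, against 14.7% of all genes tested. With the 4 arrays of the comparison alone, 5 were lower and 2 higher. The list median was -0.34. It became -0.30 and -0.38 without control replicates 1 and 2, and -0.25 and -0.41 without D493N replicates 1 and 2. The laminin chains LanB1 (-0.73) and LanB2 (-0.68) and the collagen-modifying enzyme gene Plod (-0.72) fell. The 9 include the receptor gene Tl, which the list holds although it is no matrix protein (-0.34). The genes that rose were prc, given above, and Tig, a ligand of integrins in muscle and fat body matrix, from 1191 and 1038 to 2649 and 2380.1 (1.10).

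On cuticle protein genes the D493N arrays disagreed widely, and the number called moved with the arrays used. Of 45 tested genes 13 fell and 1 rose, but 13 of the 45 had a gap of at least 2-fold with D493N replicate 1 lower, and the stable set kept 7 of the decreases. The number lower was 7 and 9 without control replicates 1 and 2, 16 when D493N replicate 1 was left out and 22 when replicate 2 was. The list median was -0.40, and it became -0.22 without replicate 1 and -0.54 without replicate 2. All 8 called genes with the widest gaps between the D493N arrays, picked by that gap, were lower on replicate 1. Cpr97Eb read 154 and 1173 with D493N and 3558 and 2974 in control, and CG8736 read 419 and 4719 and 9952 and 8442. The chitinase gene Cht7 read 106 and 614 with D493N and 1241 and 967 in control. In each of the 3 both D493N signals lie below control, and replicate 2 lies within or near the range of the other EYA groups, for CG8736 5456 and 6265 with wild-type EYA and 4950.2 and 3977 with E728Q. Cpr97Ea, Cpr100A, CG13056, Obp83g and the peroxidase gene Pxd behaved alike, with log2 fold changes without replicate 1 between -1.36 and -0.72 and without replicate 2 between -4.25 and -3.22. All 8 stayed called without D493N replicate 1 (adjusted p from 0.000209 to 0.0424) but not without control replicate 1 (adjusted p from 0.067 to 0.193), whereas Cpr62Bb, at 2589.8 and 2502 in control and 457 and 859 with D493N, kept its call (-2.02).

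**Figure D3:**
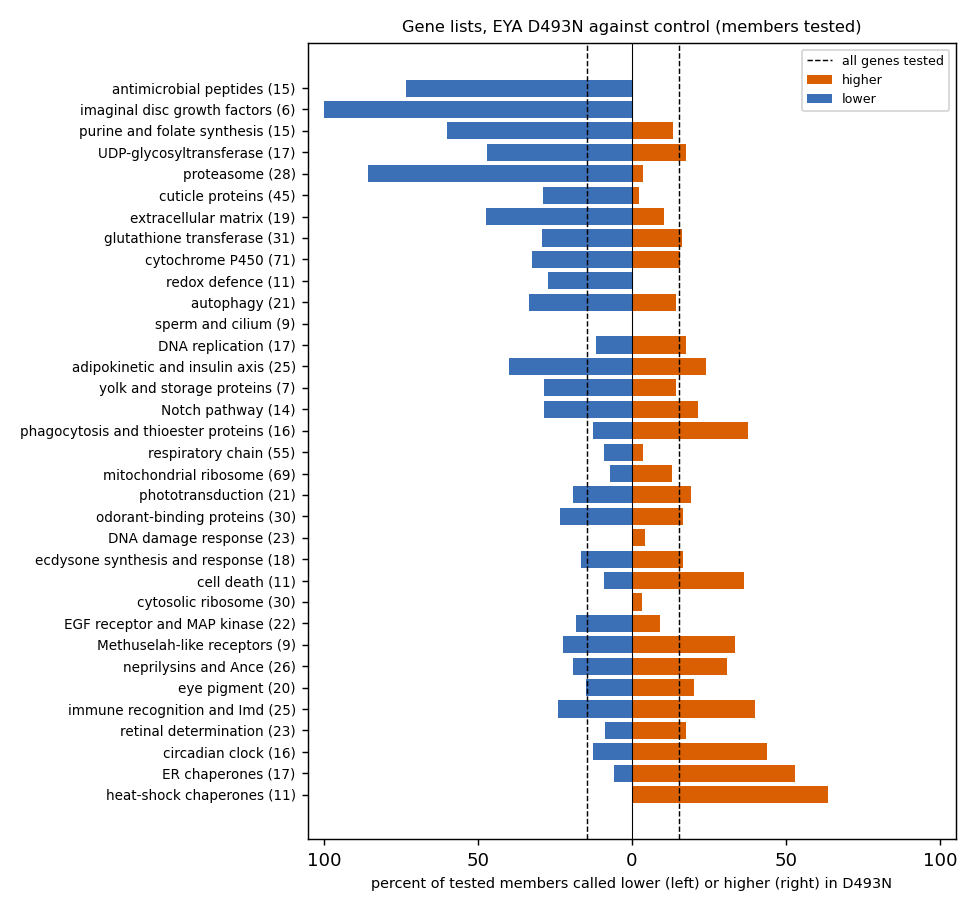
Percent of the tested members of each list called higher (right) or lower (left) with D493N, ordered by list median. Dashed lines mark the 15.2% higher and 14.7% lower among all genes tested, and the number tested is in parentheses. The proteasome, disc growth factor and antimicrobial lists reach far left, while chaperone, clock and immune recognition lists reach farthest right.

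Proteasome subunits fell by small amounts and on both D493N arrays. Of 28 genes 24 fell and 1 rose, with a median of -0.42 that was -0.41 without replicate 1 and -0.39 without replicate 2. The number lower was 13 without control replicate 1 and from 21 to 24 in the other fits that left arrays out, and 13 genes were in the stable set. Rpn11, the deubiquitinating subunit of the lid, read 4136 and 3575 in control and 2121 and 2232 with D493N, a log2 fold change of -0.84 with an SE of 0.08 (adjusted p = 0.00013). The ATPase genes Rpt2 and Rpt5 of the base fell from 2818 and 2428 to 1672 and 1705 (-0.67) and from 3441 and 3028 to 2053 and 2192 (-0.64). The gene that rose, Prosbeta2R2, is a related copy of a core subunit with signals of 7.95 and 32.2 in control and 311 and 257 with D493N. Both D493N arrays also had the highest Act5C end ratios of the series, whose part in these small decreases was not tested. Cytosolic ribosomal genes held 1 higher and 0 lower of 30.

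Chaperones moved the other way. Among heat-shock chaperones 7 of 11 rose and 0 fell, with a median of 0.35, although every group had the same heat shock. On deposited values the median was 0.48, with 6 higher and 0 lower. Hsp26 went from 23028 and 22477 to 31556 and 33199 (0.35), and the co-chaperone gene stv from 7758 and 8224 to 11000.4 and 11235 (0.51). For DnaJ-1 the D493N arrays gave 14286 and 7804, with 5512 and 5985 in control, so its change of 0.94 rests largely on replicate 1 and was 0.42 without it. Without control replicates 1 and 2 the list held 3 and 4 higher. Among ER chaperones and translocation genes 9 of 17 rose and 1 fell, and the list held 4 higher without either control array. Sec61beta, a subunit of the ER translocation channel, rose from 4613 and 3904 to 9687 and 8205, a log2 fold change of 1.08 with an SE of 0.13 (adjusted p = 0.000305).

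Lists of eye genes and of the retinal network held calls in shares not far from those of all genes tested. In the retinal determination list 4 of 23 genes rose and 2 fell, with 2 and 1 higher without control replicates 1 and 2. The probe set of eya read 991 and 918 in control and 1240.4 and 1554 with D493N, a log2 fold change of 0.46 with an SE of 0.12 (adjusted p = 0.0234) that was no longer called with the 4 arrays of the comparison (adjusted p = 0.0508) or without either control array, nor without D493N replicate 2 (0.30, adjusted p = 0.0734). The same probe set read 916 and 915 with wild-type EYA and 1386 and 1140 with E728Q. Neither was called against control in the limma model (-0.04, adjusted p = 0.855, and 0.35, adjusted p = 0.0707). Whether it lies in the transgene was not given in the sources used here. The partner gene so (0.28, adjusted p = 0.174) and dac (0.14, adjusted p = 0.587) were not called. The signalling gene dpp rose from 383 and 385 to 734 and 694 (0.80) and the neural fate gene pros fell from 2400.0 and 2225 to 1379.8 and 1653 (-0.67), both in the stable set. Phototransduction held 4 higher and 4 lower of 21, with 7 higher without D493N replicate 1, 7 lower without D493N replicate 2, 2 higher without either control array and 2 lower without control replicate 2. Among the higher was laza, a lipid phosphatase of photoreceptors, up from 2382 and 2130.2 to 6062 and 5697 (1.34). The carotenoid uptake receptor gene ninaD fell from 234 and 196 to 63.7 and 84.1 (-1.37) and the carotenoid-cleaving enzyme gene ninaB from 3800.0 and 3499 to 2443 and 2194 (-0.67). Eye pigment genes held 4 higher and 3 lower of 20, with 2 higher without either control array. The pigment transporter gene bw rose from 604 and 591 to 2187 and 2223 (1.76), while the pteridine enzyme genes se, from 8721 and 7945 to 1314 and 1989 (-2.34), and pr, from 6067 and 5339 to 2376 and 3005 (-1.08), fell.

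Of the clock genes, 7 of 16 rose and 2 fell, with 5 and 0 in the stable set and a median of 0.26. The gene per read 512 and 512 in control and 2212 and 2525 with D493N, a log2 fold change of 2.09 with an SE of 0.09 (adjusted p = 1.40e-06). The transcription factor genes Pdp1 and vri rose from 1146 and 1362 to 2505 and 3289 (1.12) and from 2937 and 2748 to 5457 and 6043 (0.98), tim, the partner of per, from 5417 and 4792 to 6865 and 9340.3 (0.67), and the neuropeptide gene Pdf from 1669 and 1650.4 to 2930.3 and 3302 (0.85). All 5 were higher on both D493N arrays than on either control array. The hour of day at which each group was collected was not given in the sources used here.

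Smaller lists held single genes with large changes. In DNA replication Mcm2, a subunit of the replicative helicase, rose from 105 and 155 to 1231 and 581 (2.53). Orc1 rose from 83 and 95.5 to 446 and 251 (1.69), and RPA2 fell from 343 and 339 to 116 and 117 (-1.43). That list held 3 higher and 2 lower of 17 (17.6% and 11.8%), near the 15.2% and 14.7% of all genes tested. The damage response gene mus101 rose from 52.5 and 51.7 to 674 and 323 (2.75), the only call among 23 genes. Mcm2, Orc1 and mus101 each had replicate 1 above replicate 2, and both above control. In cell death 4 of 11 rose and 1 fell (2 rose without control replicate 2), with the Bcl-2 family gene Debcl (0.98) and egr, a tumour necrosis factor ligand (0.71), in the stable set. The Notch antagonist gene H rose from 382 and 416 to 1423 and 1188 (1.60), and the receptor gene Egfr fell from 761 and 552 to 332 and 384 (-0.87). Sod3, an extracellular superoxide dismutase, fell from 2563 and 2345 to 1148 and 1369.9 (-1.01). Respiratory chain genes held 2 higher and 5 lower of 55, with 19 lower without D493N replicate 2 and 1 lower without either control array. Mitochondrial ribosomal proteins (9 higher and 5 lower of 69) lay below the shares of all genes tested.

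Against the other 2 transgenes D493N differed at few genes. Of 11261 probe sets, 130 were called against wild-type EYA (1.15%) and 19 against E728Q (0.169%). In detail, 60 were higher (0.533%) and 70 lower (0.622%) with D493N than with wild-type EYA, and 10 were higher (0.0888%) and 9 lower (0.0799%) than with E728Q. With deposited values in place of quantile normalized ones the split became 86 higher and 38 lower against wild-type EYA and 11 higher and 5 lower against E728Q. These counts moved with every array left out. Against wild-type EYA there were 242 and 1016 calls without D493N replicates 1 and 2, and 17 and 21 without wild-type EYA replicates 1 and 2. Against E728Q there were 63 and 1101 without D493N replicates 1 and 2, and 10 and 4 without E728Q replicates 1 and 2. They also fell to 17 and 3 when only the 4 arrays of the comparison entered the fit. Called against both transgenes in the same direction were 3 probe sets higher (0.0266%) and 5 lower (0.0444%), of which 6 have a single gene symbol. The comparisons below share the D493N arrays, so their values are given side by side.

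Ugt35C1 read 145 and 127 with D493N, 365 and 330.3 with wild-type EYA, 283 and 305 with E728Q and 1803 and 1605 in control. The signal was thus lowest on both D493N arrays, with log2 differences of -1.28 from wild-type EYA (adjusted p = 0.00133) and -1.03 from E728Q (adjusted p = 0.00898). Cyp6g1 read 551 and 632 with D493N, 1584 and 1346 with wild-type EYA and 1176 and 1139 with E728Q, with differences of -1.37 and -0.98. Cyp28a5, also a cytochrome P450, read 1637 and 1256, 3091 and 2745 and 3196 and 3031 in the same order of groups, with 5529 and 5078 in control, and differed by -1.11 and -1.14. All 3 detoxification genes were below control in each transgenic group and lowest with D493N. The gene qtc, linked to male courtship, read 2111 and 2354 with D493N, 3310.1 and 3274 with wild-type EYA, 3314 and 3119 with E728Q and 4036 and 3556 in control. For heix, a prenyltransferase gene, signals were 1080.4 and 1129, 540.3 and 511 and 573 and 564, and 479.9 and 477 in control. For both genes the other transgenes were not called against control (adjusted p = 0.342 and 0.0626 for qtc, 0.33 and 0.136 for heix), while D493N was (-0.78 and 1.10). CG33296 read 642 and 565 with D493N, 211 and 286 with wild-type EYA, 221 and 192 with E728Q and 1446 and 1302 in control, so that D493N lay between control and the other transgenes.

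**Figure D4:**
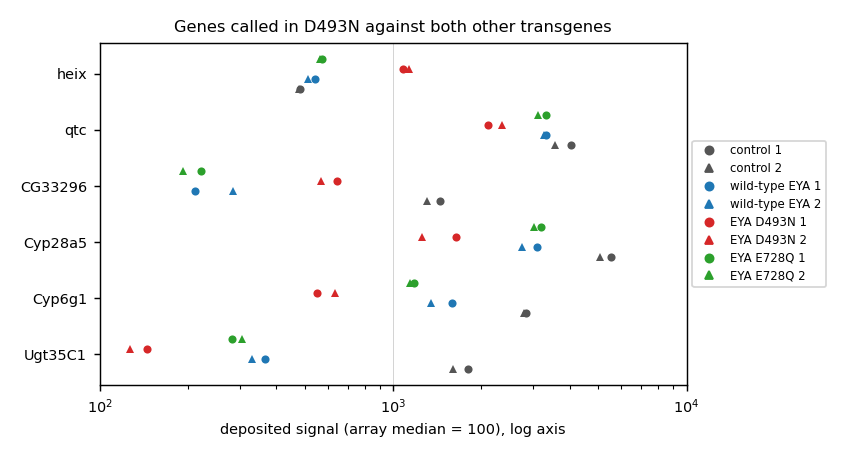
Deposited signal (log axis; array median 100) of the 6 genes called in D493N against both wild-type EYA and E728Q, with all 8 arrays. The D493N points (red) lie apart from the other transgenes for each gene, and for CG33296 they fall between those and the control points.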

How the data were processed

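The deposited table holds intensity values on a linear scale, 1 per probe set and array, for RNA of adult fly heads, and every array has a median of 100. Per the submitters' processing notes the software was GCOS, and its version and settings were not given in the sources used here. Of 18952 probe sets, 183 Affymetrix controls were kept out of the tests. After quantile normalization 17.5, the 25th percentile over the deposited table, was added as a pseudocount for the log2 scale, and the 60% with the highest mean over 8 arrays were tested with limma 3.58.1 under R 4.3.3. All 8 arrays entered 1 model with a coefficient per group and a variance trend. Two-sided p-values were adjusted by Benjamini-Hochberg over every probe set tested and called under 0.05. The script was tested on simulated data, and the recovery asked of it was lowered after its first run fell short. Fold changes are on the log2(value + pseudocount) scale after quantile normalization and understate changes of low signals. They can therefore differ from the ratios of the signals printed beside them, also at high signal. Printed signals are deposited values, and the number of arrays limits the precision. Mean signals between percentiles 2 and 98 ran from 594 to 662.

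Symbols came from the array annotation, with exactly 1 for 13647 probe sets, several for 402 and none listed for 4903. Of the 13647, 13544 were updated by gene identifier from an annotation of Release 6 plus ISO1 MT, which otherwise gave only the order of neighbouring genes. The brightest probe set stood for each of 8660 tested genes. Genes named are the 15 largest changes in each direction of the stable set with a mean of at least 100 in the higher group, the 8 called genes with the widest gap between D493N arrays, up to 8 in each direction called against both other transgenes, up to 5 called members of each of 35 lists, and eya, so and dac. Markers of 11 cell types and tissues were read beside them. Members and lists were chosen with earlier results of these data known. Alternatives were deposited values, 2 other pseudocounts, 2 other filters, array weights, a replicate block, only the groups compared, and each array left out. Sequences were not used here.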

Additional observations from a re-analysis of the deposited data

Results flagged for a closer look

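Some named genes differed between D493N and another transgene, tested in the same model as a direct contrast. Against wild-type EYA, 17 of the 180 named genes differed, where 1.15% of all probe sets tested were called. Of these, Ugt35C1, Cyp6g1, Cyp28a5, qtc, CG33296 and heix were named because they were called against both other transgenes. Their place in this count was thus fixed beforehand. The log2 difference was 0.63 for mthl8, -1.65 for CG34217, -1.28 for Ugt35C1, -1.37 for Cyp6g1, -1.11 for Cyp28a5, -0.67 for qtc, 1.17 for CG33296 and 0.97 for heix. It was -0.46 for the proteasome gene Rpn11, 2.89 for Hsc70-2, -0.98 for Obp56a, 1.07 for Aprt, 0.95 for Pdp1 and -1.20 for fit. Among genes of secreted and matrix proteins it was 0.62 for Tig, -0.61 for Plod and 0.75 for Idgf3.

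Pdp1 read 2505 and 3289 with D493N, 1346 and 1436 with wild-type EYA and 1146 and 1362 in control, so both D493N arrays lay above the other 4. Aprt read 1529 and 1290.3 with D493N, 653 and 609 with wild-type EYA and 481 and 352 in control. The chaperone gene Hsc70-2 read 224 and 314 with D493N, 7.98 and 36.3 with wild-type EYA and 48.6 and 4.13 in control, and its control arrays differed widely at low signal. Idgf3 read 2083 and 1859 with D493N and 1129 and 1054 with wild-type EYA, both below the 4066 and 3755 of control.

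Against E728Q, the log2 difference was -1.03 for Ugt35C1, 1.44 for CG33296, 0.90 for heix, -1.14 for Cyp28a5, -0.98 for Cyp6g1, -0.56 for qtc and -0.71 for Sod3. All of these but Sod3 were named because of that call. Over all probe sets tested, 0.169% were called against E728Q. Sod3 read 1148 and 1369.9 with D493N and 1936 and 2064 with E728Q.

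Among the Affymetrix control probe sets, which entered no test, 4 were at least 2-fold higher with D493N than in control without overlap. The 18S rRNA controls had means of 3560 at the 5' end, 10056 in the middle and 8387 at the 3' end with D493N, against 825, 4973 and 3152 in control. A control probe set whose target is not named in the sources used here had a mean of 3685 with D493N and 8.13 in control. Its signals were 5514 and 1857 with D493N, 1624 and 1645 with wild-type EYA, 734 and 857 with E728Q, and 2.21 and 14.0 in control. It was thus high on each transgenic array, and highest on D493N replicate 1, the array that also had the highest 18S rRNA signals.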

How the results depend on the processing

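No named gene that was called changed direction under any alternative, and the count against control stayed within 1.5 times of 3147 under deposited values (2897), both pseudocounts (3135 and 3166), both filters (2768 and 2743), array weights (2560), the replicate block (2902) and the 4 arrays alone (2223). With each array left out in turn it ranged from 1864 to 3728. The 130 calls against wild-type EYA became 79 with array weights, 86 with the replicate block and 17 with only the groups compared, and ranged from 17 to 1016 with arrays left out. The 19 calls against E728Q became 3 with only the groups compared and ranged from 4 to 1101 with arrays left out. With the replicate block they were 15. The labels do not say what the replicate numbers share. Across probe sets the gaps between replicates correlated with the D493N gap at -0.01 (control), 0.04 (wild-type EYA) and -0.14 (E728Q). Such correlations cannot show whether samples were handled in pairs, so pairing is unknown. The crossed replicate block for E728Q, chosen after seeing the data, gave 44 calls. Of the 180 named genes, calls were lost for 41 without control replicate 1, 37 without control replicate 2, 10 without either D493N array in turn, 30 with the 4 arrays alone, 15 with no filter, 7 with array weights, 5 with deposited values, 3 with the replicate block and 1 with the smaller pseudocount. Of 70 counts of list members in 1 direction, 30 moved by over 1.5 times without control replicate 1, 32 without control replicate 2, 19 without D493N replicate 1, 10 without D493N replicate 2 and 22 with the 4 arrays alone. With 2 arrays per group, few changes of small size can be called at low signal, and the 2816 dimmest probe sets were called least often.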

Other observations

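Several groups of other tissues were read on the D493N arrays as plain values. Glial genes had 2 higher and 4 lower of 8 against control, with summed signals of 32195 and 29545 in control and 33021 and 30559.7 with D493N, which overlap. The 4 lower became 1 without either control array, and 0 were in the stable set. Midgut genes summed to 413 and 403 with D493N and 566 and 413 in control, over 5 tested genes with 0 higher and 1 lower. The sum over 5 female germline genes was 477 and 268 with D493N and 165 and 615 in control, so the control arrays differed more than the D493N arrays. The only tested Turandot stress gene, TotC, read 770.3 and 1243 with D493N and 2513 and 2209 in control. Its log2 fold change was -1.31 with an SE of 0.31 (adjusted p = 0.0125 in the limma model). That call did not hold once either control array was left out.

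Odorant-binding protein genes held 5 higher (16.7%) and 7 lower (23.3%) of 30 with D493N, against 15.2% and 14.7% of all genes tested. The list median was 0.02. In the stable set were 2 higher and 4 lower, and the counts moved with each array left out. Obp99a and Obp56a fell (-2.82 and -1.54), while Obp99d rose from 98 and 96.7 to 259.8 and 304 (1.35). Obp19a read 65.3 and 223 in control and 288 and 839 with D493N, with replicate 1 below replicate 2 in both groups. In autophagy 3 of 21 genes rose and 7 fell, against 15.2% and 14.7% of all genes tested. These became 1 and 3 without control replicate 1, 1 and 2 without control replicate 2, 1 and 4 without D493N replicate 1, and 1 and 2 in the stable set, with Atg14 up from 1056 and 977 to 1979.8 and 1644 (0.74) and Atg3 down from 2238 and 1893 to 1608 and 1559 (-0.43). Of 9 sperm and cilium genes 0 were called in the limma fit and 0 had an unadjusted p under 0.05.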
